A study of Mus musculus with 10 samples.

Results

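The VEGF and angiopoietin system was followed in the mouse left ventricle through 10 genes chosen by name: the ligands Vegfa, Vegfb, Vegfc and Pgf, their receptors Flt1, Kdr and Flt4, the angiopoietins Angpt1 and Angpt2, and the angiopoietin receptor Tek. Each of the 10 genes had 1 probe among the 26423 probes of the array, which carry 19942 gene symbols. The hearts came from male C57BL/6J mice, 8 weeks old at surgery, in which the transverse aorta was banded (TAB), which overloads the ventricle with pressure, or which had a sham operation. The banding is described as done under isoflurane, and the labels give no engineered allele or drug treatment for either group. The left ventricle was taken on days 3, 5, 7, 14 and 28, with 1 TAB and 1 sham sample on each day and thus 5 samples per operation and 10 in all. The title of 1 TAB sample names day 14 whereas its condition reads 15 days, and the title was followed.

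VEGF ligands are secreted dimers that bind receptor tyrosine kinases on endothelial cells. Vegfa acts on Kdr, the main signalling receptor for vessel growth, and on Flt1, which binds the ligand tightly and signals weakly, whereas Vegfb and Pgf bind Flt1 and Vegfc binds Flt4, a receptor of lymphatic vessels. Angpt1, made mainly by perivascular and other non-endothelial cells, activates Tek (Tie2) on the endothelium and stabilises vessels, whereas Angpt2, released by endothelial cells, can oppose it.

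Of these genes, only Angpt1 passed the test of a difference between TAB and sham, 1 of 9 measured, where 7.87% of all genes were called lower and 9.19% higher. It was down-regulated in TAB, at 0.633 of its sham level (95% interval 0.480 to 0.835, n = 5 days), and it was lower on 5 of the 5 days. The call was lost whichever day was left out (adjusted p from limma between 0.0728 and 0.120). It was also lost with median scaling alone, with quantile normalization within each operation and with probes below 1 set to 1. The second of these is nearest to the paper's methods, which describe rank medians taken for each condition. Vegfa, Vegfc, Pgf, Flt1, Kdr, Flt4, Angpt2 and Tek had mean log2 ratios of TAB to sham between −0.14 and 0.29 and did not pass the test. Vegfb could not be measured. The calls rest on the average over the 5 days, since a single day has no replicate check.

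The reference sequence in front of the outermost annotated start is shown for Vegfa, and for Vegfc with its receptor Flt4, as a description of these genes. Which start the transcripts read by the probes came from is not known. The sequences are from RefSeq on build GRCm38.p6, 5′ to 3′ on the strand of the gene, 250 bases each. Capitals mark GC boxes, the letters GGGCGG on either strand, which are bound by Sp1 and related factors.
Vegfa, chr17:46032378-46032627, minus strand: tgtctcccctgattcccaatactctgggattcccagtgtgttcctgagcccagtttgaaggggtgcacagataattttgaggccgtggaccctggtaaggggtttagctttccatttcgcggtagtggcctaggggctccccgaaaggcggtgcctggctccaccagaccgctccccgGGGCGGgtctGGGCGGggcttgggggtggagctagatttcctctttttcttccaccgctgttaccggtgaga
Vegfc, chr8:54077282-54077531, plus strand: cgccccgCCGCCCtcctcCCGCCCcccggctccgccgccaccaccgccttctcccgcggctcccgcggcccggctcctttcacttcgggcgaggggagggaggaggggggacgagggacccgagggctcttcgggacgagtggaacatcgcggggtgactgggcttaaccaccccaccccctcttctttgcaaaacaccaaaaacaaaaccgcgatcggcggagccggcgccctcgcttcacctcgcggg
Flt4, chr11:49609429-49609678, plus strand: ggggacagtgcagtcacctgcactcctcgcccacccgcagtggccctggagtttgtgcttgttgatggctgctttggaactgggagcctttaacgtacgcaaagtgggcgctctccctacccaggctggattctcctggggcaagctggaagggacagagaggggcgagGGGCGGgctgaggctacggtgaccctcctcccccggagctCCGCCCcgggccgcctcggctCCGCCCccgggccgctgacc

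Vegfa had GC boxes that begin 72 and 62 bases before the start, Vegfc 243 and 232 bases before it and Flt4 81, 41 and 20 bases before it. A GC box was present in 32.7% of the 32851 promoter windows of this length. The core letters of a hypoxia response element, ACGTG or GCGTG on either strand, were not in these 3 windows and were in 38.6% of all windows. Vegfb, the fourth member with such a window, held them 237 and 81 bases before its start, beside GC boxes at 180, 121, 115 and 104. Windows before starts inside the annotated gene held them in Vegfa (218 and 211 bases before the start), Pgf (124), Flt1 (184) and Kdr (131 and 89), and a further window of Pgf and that of Tek did not. In all, 5 of the 10 windows of the members had a hypoxia core and 8 had a GC box. The absence of these letters concerns the 250 bases alone. The match is a description of sequence, and binding was not measured. Of the 10 members, 8 had an entry among the promoter sequences used, all but Angpt1 and Angpt2.

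Fluorescent intensity was read in 1 colour and is given here as log2 of the normalised intensity. A difference in the intensity of 2 probes says nothing about the amount of their transcripts, so levels were compared only within a probe. The raw median of an array lay between 34 and 57, and between 40.2% and 47.3% of the spots carried a negative flag, read here as a spot not found. The 1st percentile of the found spots was between 25 and 27. Precision is limited by how few arrays there are. Of the 14 cardiomyocyte markers, 14 were found on all 10 arrays, as were 21 of 22 endothelial markers. Such counts do not tell the left ventricle from other heart tissue. Since bulk tissue was measured, fewer cells of a type and less RNA per cell cannot be told apart.

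Vegfb, on chromosome 19 (6982472 to 6987651, build GRCm38.p6), was not well above background on any array. Its probe was found on 0 of 10 arrays, with raw intensities between −6 and 6, and it was removed by the filter on low values. No level and no ratio can be given for it. The other 9 members were found on 10 of 10 arrays and entered the test with 16113 genes in all.

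The angiopoietins were the members with the largest mean ratios. Angpt1 lies on chromosome 15 (42424667 to 42676977). Its log2 intensity in TAB, in the order of the days, was 7.56, 7.58, 7.41, 7.44 and 7.61. In sham it was 8.29, 7.86, 8.68, 7.87 and 8.19. The TAB samples lay within 0.20 of each other, whereas the sham samples spread over 0.82, with days 5 and 14 low and day 7 high. The groups did not overlap, and the lowest sham sample, of day 5, stood 0.26 above the highest TAB sample, of day 28.

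The log2 ratio of Angpt1 was −0.73, −0.29, −1.27, −0.43 and −0.58, again in the order of the days. Day 7 held the largest ratio and the highest sham value, and it was the only day on which the ratio exceeded the range of the sham samples. The mean log2 ratio was −0.66 (SE 0.16, 95% interval −1.06 to −0.26, n = 5 pairs), with an adjusted p of 0.0439 from limma, fitted with day as a block. Of all genes, 7.87% were called lower and 9.19% higher in TAB by this test, and 7.76% had 5 TAB values below all 5 sham values. The share of higher genes among all calls was 53.9%, and with median scaling alone it was 67.6%. The call of 1 among 9 members is thus near the share over all genes.

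The call of Angpt1 stood close to the threshold, although its direction was kept. When days 3, 5, 7, 14 or 28 were left out in turn, its adjusted p from limma was 0.120, 0.0851, 0.104, 0.0763 and 0.0728, so that the call was lost each time, with mean log2 ratios between −0.75 and −0.51. It was also lost with median scaling alone (−0.57, adjusted p = 0.0582 from limma). The same held for quantile normalization within each operation (−0.58, adjusted p = 0.0581 from limma), the form nearest to the paper's methods. With probes below 1 set to 1 the call was lost as well (−0.66, adjusted p = 0.0815 from limma). The groups of Angpt1 did not overlap under any of the 10 ways of processing tried, with gaps between 0.15 and 0.26.

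The signal of Angpt1 was low. Its raw intensities were 137, 199, 172, 162 and 239 in TAB and 321, 222, 351, 231 and 347 in sham, in order of the days, and these unscaled values overlapped. The deposited detection p-value was below 0.05 on 2 of the 10 arrays, both of them sham, of days 7 and 28. On those arrays 38.6% and 38.0% of all probes had such a p-value, against 18.8% to 23.5% on the other arrays, so that this count does not compare the operations. The part of these arrays in the ratio was not tested, and without day 7 the mean log2 ratio was −0.51.

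Angpt2 lies on chromosome 8 (18690263 to 18741562). Its log2 intensity was 7.02, 7.26, 7.50, 7.15 and 6.65 in TAB and 7.15, 6.43, 6.90, 7.03 and 6.62 in sham, from the earliest day to the latest. The groups overlapped. TAB exceeded sham by 0.84 on day 5 and 0.60 on day 7, and by 0.12 and 0.03 on days 14 and 28, and was below it by 0.13 on day 3 (log2 ratio −0.13). The mean log2 ratio was 0.29 (SE 0.17, 95% interval −0.13 to 0.71), with an adjusted p of 0.277 from limma. Without day 5 the mean was 0.16. Raw intensities were between 83 and 183, and the detection p-value was below 0.05 on 1 of 10 arrays, a sham array.

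Tek, on chromosome 4 (94739086 to 94874976), had log2 intensities of 9.84, 9.55, 10.02, 10.19 and 10.09 in TAB and 9.71, 9.72, 9.95, 10.20 and 9.74 in sham. The 2 courses ran close together up to day 14 and were 0.35 apart on day 28. Its mean log2 ratio was 0.07 (SE 0.11, 95% interval −0.20 to 0.35, adjusted p = 0.685 from limma). The interval corresponds to 0.868 to 1.27 of the sham level and was on the log2 scale the narrowest among the members.

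**Figure D1:**
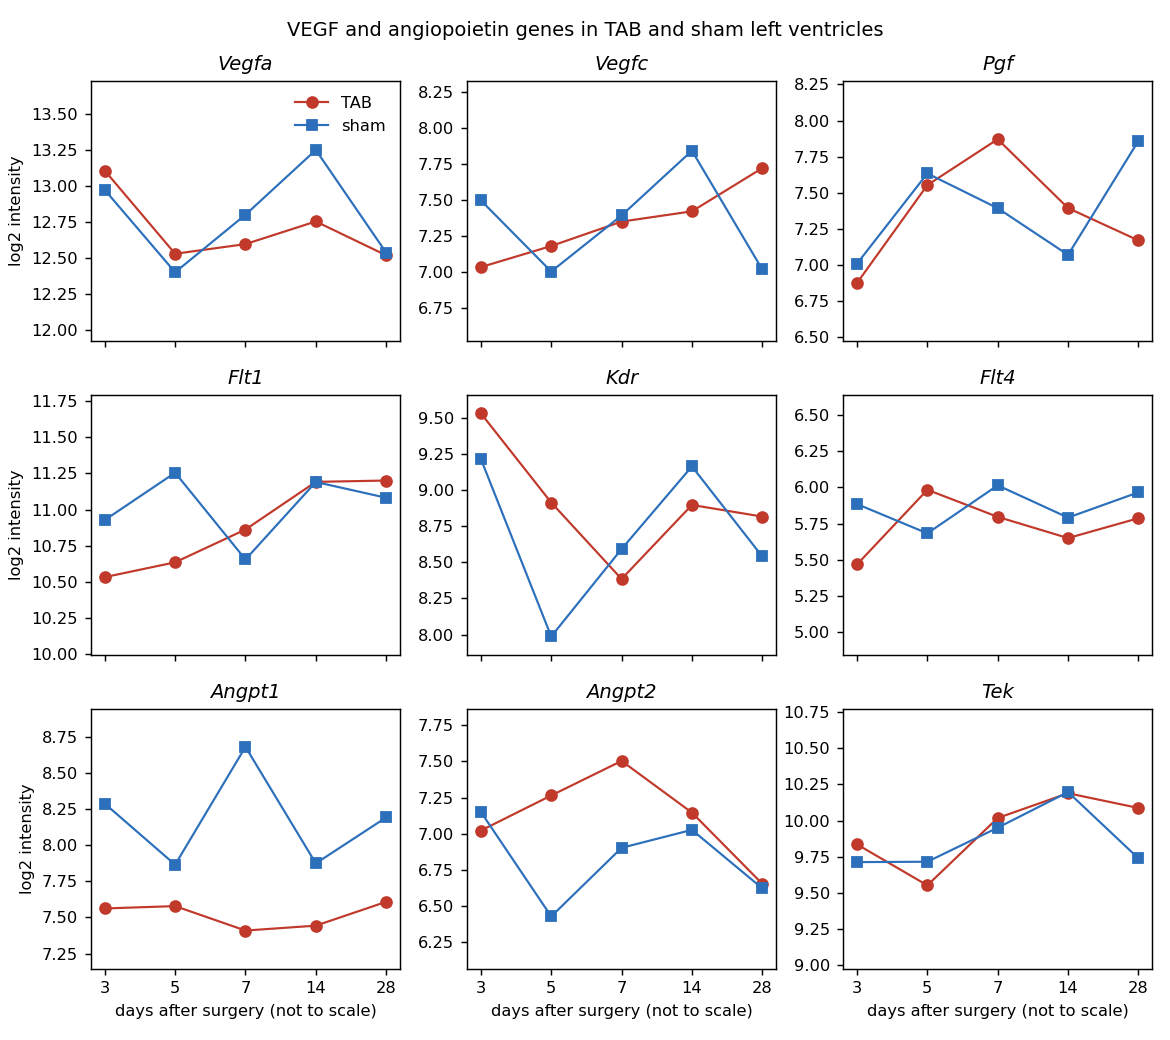
Log2 normalised intensity (y axis, each panel spanning 1.8 log2 units) of the 9 measured members at the 5 times, in days after the operation (x axis, evenly spaced), with TAB as circles and sham as squares, 1 sample per point. For Angpt1 the TAB line stayed below the sham line on every day and the groups did not overlap, whereas the lines of the other members crossed.

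Among the VEGF ligands, Vegfa had raw intensities between 5203 and 9803 and a detection p-value below 0.05 on 10 of 10 arrays. The gene lies on chromosome 17 (46016993 to 46032377). Its log2 intensity was 13.11, 12.53, 12.60, 12.75 and 12.52 in TAB and 12.97, 12.40, 12.80, 13.25 and 12.54 in sham. In both operations day 3 lay above days 5, 7 and 28. The largest difference was on day 14, with a log2 ratio of −0.49, where the sham sample was the highest of the 10. The mean log2 ratio was −0.09 (SE 0.13, 95% interval −0.41 to 0.23, adjusted p = 0.664 from limma), so that changes of the mean beyond 0.752 to 1.17 of the sham level lay outside the interval.

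Vegfc, the lymphatic growth factor on chromosome 8 (54077532 to 54186454), had log2 intensities of 7.04, 7.18, 7.35, 7.42 and 7.72 in TAB, each day above the one before. The sham values were 7.50, 7.01, 7.39, 7.84 and 7.02, without such an order. The log2 ratio changed sign between days, from −0.46 on day 3 to 0.70 on day 28. The mean was −0.01 (SE 0.19, 95% interval −0.48 to 0.46, adjusted p = 0.979 from limma).

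Pgf, placental growth factor, on chromosome 12 (85166637 to 85177785), had log2 intensities of 6.88, 7.55, 7.87, 7.39 and 7.17 in TAB, with the maximum on day 7. Sham values of 7.01, 7.63, 7.39, 7.07 and 7.86 covered almost the same range, with the maximum on day 28. The log2 ratio reached 0.48 on day 7 and 0.32 on day 14 but stood at −0.69 by day 28, and the mean was −0.02 (SE 0.19, 95% interval −0.48 to 0.44, adjusted p = 0.952 from limma). Raw intensities of Pgf lay between 85 and 276 and those of Vegfc between 95 and 257. The detection p-value was below 0.05 on 2 of 10 arrays for each gene, sham arrays in both cases. As for Angpt1, such a count does not compare the operations.

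The receptor Flt1 lies on chromosome 5 (147561604 to 147726438). Its log2 intensity in TAB was 10.53, 10.64, 10.86, 11.19 and 11.20, the lowest on day 3 and the highest on day 28. In sham it was 10.93, 11.26, 10.66, 11.19 and 11.08. The log2 ratio was −0.40 on day 3 and −0.62 on day 5, and between 0.00 and 0.21 on the later days. Over the 5 days the mean was −0.14 (SE 0.16, 95% interval −0.52 to 0.24, adjusted p = 0.572 from limma). Whether the probe reads the membrane-bound form of the receptor, the soluble form or both is not known, since its position is not given in the sources used here.

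Kdr, also on chromosome 5 (75932827 to 75979072), had log2 intensities of 9.53, 8.91, 8.38, 8.90 and 8.82 in TAB and 9.21, 7.99, 8.59, 9.16 and 8.54 in sham. Its sham SD over the days was 0.51, the largest among the members, and 78.8% of all genes had a lower one. The ratio of 0.93 on day 5 fell on the day of the lowest sham value, and the TAB value of that day lay inside the range of the sham samples. The mean log2 ratio was 0.21 (SE 0.20, 95% interval −0.27 to 0.69, adjusted p = 0.488 from limma), and 0.03 without day 5.

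Flt4, on chromosome 11 (49609679 to 49652739), had raw intensities between 31 and 76, close to the lowest found spots, and a detection p-value below 0.05 on 0 of 10 arrays. Its log2 intensity lay between 5.47 and 5.98 in TAB (median 5.79) and between 5.68 and 6.01 in sham (median 5.89). The groups overlapped, although TAB was lower on 4 of 5 days. The mean log2 ratio was −0.13 (SE 0.13, 95% interval −0.45 to 0.19, adjusted p = 0.520 from limma).

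**Figure D2:**
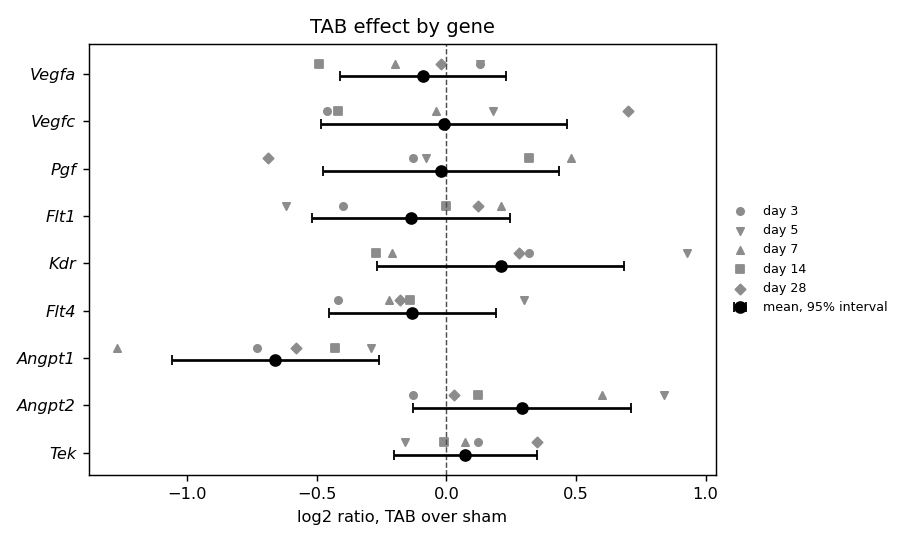
Log2 ratio of TAB to sham (x axis) for each measured member (y axis), with grey symbols for the single days, black points for the mean over 5 days and bars for the 95% interval from limma. The interval of Angpt1, −1.06 to −0.26, lies below 0, and the intervals of the other 8 members include 0.

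By day, 3, 5, 4, 3 and 5 of the 9 members were above sham on days 3, 5, 7, 14 and then 28. The median log2 ratio of the members was between −0.14 and 0.13 on these days, and that of all genes between −0.06 and 0.00. The study's rule calls a log2 ratio beyond 2 SDs of all ratios of the day (1.78, 1.93, 1.75, 1.48 and 1.38 on the 5 days). Applied here to arrays normalised together, it called 0 of the 9 members on any day, and 17.5% of all genes on at least 1 day. An absolute log2 ratio of at least 1 was reached by Angpt1 on day 7 and by no other of the 45 ratios, and 42.3% of all genes reached it on at least 1 day. Some 9.99% of all genes had 5 TAB values above all 5 sham values, and 0 of the members did.

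The question whether early days (3 to 7) differed from late days (14 and 28) was put to the same fit. The difference of the TAB effect, early minus late, was between −0.33 for Flt1 and 0.36 for Angpt2. The mean ratio of Flt1 was −0.27 early and 0.06 late, and that of Angpt2 was 0.44 early and 0.08 late. The members had adjusted p-values between 0.680 and 0.958 from limma, and 0 of 9 had an unadjusted p below 0.05. Over all genes the test called 0% at an adjusted p of 0.05, while 1766 genes had an unadjusted p below it. The interval of Angpt2, −0.51 to 1.24, shows how little 3 early and 2 late days can separate.

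Pairs of members that share a receptor or a ligand were then compared by the difference of their log2 ratios on each day. Angpt2 minus Angpt1, the ligands of Tek, was 0.60, 1.12 and 1.87 at the early times (days 3, 5 and 7) and 0.55 and 0.62 at the late times (days 14 and 28). The ratio of Angpt2 was thus above that of Angpt1 on 5 of 5 days, by 0.95 on average (SD 0.57, n = 5). Of the 2 genes, Angpt2 did not pass the test by itself. The exact two-sided sign-flip permutation test gave p = 0.0625, the smallest value that 5 days allow, and 0.188 after Benjamini-Hochberg adjustment over the 3 pairs.

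Pgf minus Vegfa, both ligands of Flt1, differed by 0.07 on average (SD 0.65, n = 5, exact permutation p = 0.875) and was above 0 on 2 of 5 days. Flt1 minus Kdr, the receptors of Vegfa, was −0.71 and −1.55 on days 3 and 5, 0.41 and 0.27 on days 7 and 14, and −0.16 on day 28. Its mean was −0.35 (SD 0.80, n = 5, exact permutation p = 0.438). On day 5 the sham sample of Kdr was low, and the sham sample of Flt1 was high while its TAB sample was low.

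**Figure D3:**
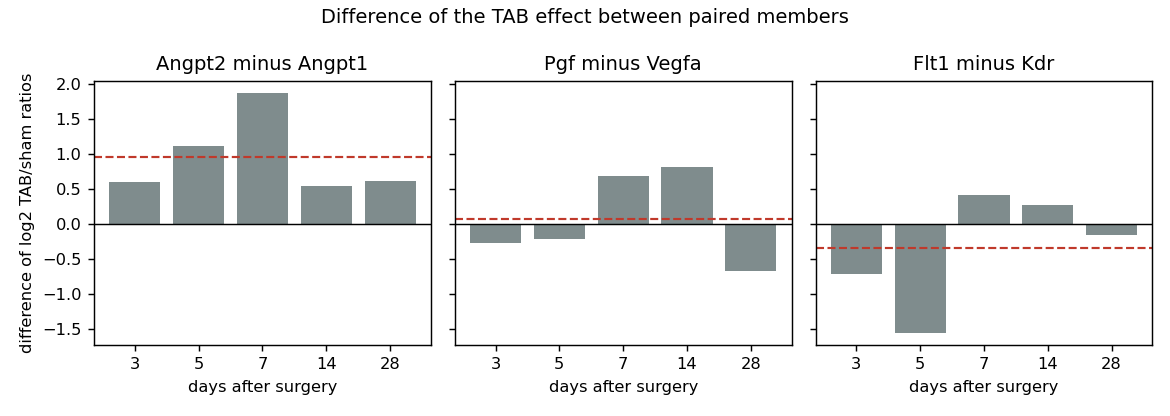
Difference of the log2 TAB to sham ratios of 2 members (y axis) on each day (x axis), with a dashed line at the mean of the 5 days. The bars of Angpt2 minus Angpt1 are above 0 on all 5 days, between 0.55 and 1.87, whereas those of the other pairs lie on both sides of 0.

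The genes whose log2 intensity followed a member most closely over the 10 samples were sought among 10534 genes found on all arrays, as a description. For Angpt1 these were Tbc1d16 (Pearson r = 0.952), D7Ertd715e (r = 0.944) and Kif9 (r = 0.937), each also called lower in TAB, with log2 ratios of −0.44, −0.55 and −0.76. For Angpt2 they were Fam173b (r = 0.965), Rtn4rl1 (r = 0.946) and Tank (r = 0.921). Kdr was followed most closely by Mettl14, Srsf4 and Mpp3 (r between 0.915 and 0.920) and Flt1 by Atp6v1d, Ankrd16 and Snx21 (r between 0.913 and 0.927). The samples share operation and day, and the highest of many coefficients over 10 samples is high in any case.

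The calls among further genes of the pathway and among cell markers rested on all 5 days together. Of 40 called genes in 10 lists, 2 (Svep1 and Postn) kept the call whichever day was left out, 38 lost it without at least 1 of the days, and 10 of these lost it whichever day was left out. Those 10 were Atp2a2, Cav1, Cd93, Cspg4, Des, Esm1, Kcne3, Notch3, Prox1 and Tfrc.

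Further genes of the VEGF pathway were examined as a list of co-receptors, ligands and signalling genes, in which 5 of 22 tested genes were up-regulated and 0 down-regulated, where 9.19% of all genes were up-regulated, with a median log2 ratio of 0.24 against −0.03 for all genes. Figf (Vegfd), the remaining lymphatic VEGF ligand, had log2 intensities of 5.81, 6.22, 5.80, 5.91 and 5.57 in TAB and 3.66, 5.16, 4.83, 5.14 and 4.98 in sham. The groups did not overlap, and the mean log2 ratio was 1.11 (SE 0.24, adjusted p = 0.0328 from limma). Its probe was found on 5 of 5 TAB arrays and 3 of 5 sham arrays, with raw intensities of 15 to 42 in sham, so that this ratio includes sham values near background. Without day 3 the mean of Figf was 0.85 (adjusted p = 0.0654 from limma), and the call was also lost without day 5, 7 or 14. With 50 added before the log it was 0.47.

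The calcineurin regulator Rcan1, which VEGF induces in endothelial cells, had a mean log2 ratio of 1.10 (adjusted p = 0.0208 from limma). Plcg2, a phospholipase found mostly in blood cells, had 1.00 (adjusted p = 0.0207 from limma), and Vash1, an inhibitor of angiogenesis that VEGF induces, had 0.67 (adjusted p = 0.0339 from limma), but 0.20 (adjusted p = 0.393 from limma) with the mean of all its probes. Cav1, caveolin of endothelial membranes, was the fifth. The co-receptors Nrp1 (0.23, adjusted p = 0.227 from limma) and Nrp2 (0.03, adjusted p = 0.912 from limma) did not pass the test. Leaving out single days gave between 0 and 5 up-regulated genes in this list, and 11 other settings gave between 2 and 7.

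In the list around the Tie receptors, 1 of 14 tested genes was up-regulated, a share near the 9.19% of all genes, and 1 to 3 were up-regulated and 0 to 1 down-regulated in 11 other settings. Svep1, a matrix protein needed for lymphatic vessel growth, had log2 intensities between 7.99 and 8.74 in TAB (median 8.43) and between 6.01 and 6.70 in sham (median 6.57). Its mean log2 ratio was 1.95 (SE 0.13, adjusted p = 0.00430 from limma), and it passed the test whichever day was left out (highest adjusted p = 0.0422 from limma). Tie1, the receptor that pairs with Tek, had 0.10 (adjusted p = 0.686 from limma), and Ptprb, the phosphatase that acts on Tek, had 0.06 (adjusted p = 0.840 from limma). Angpt4 was found on 0 of 10 arrays.

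Vegfa is a classical target of hypoxia-inducible factors. In the list of this pathway and its targets, 3 of 29 tested genes were up-regulated, near the 9.19% of all genes, and 0 down-regulated, with a median log2 ratio of 0.08. They were the lysyl oxidase Loxl2 (3.07, adjusted p = 0.0246 from limma), the transferrin receptor Tfrc (0.77, adjusted p = 0.0302 from limma, 0.0738 without the replicate block and 0.0530 to 0.0953 without single days) and the glycolytic regulator Pfkfb4 (0.67, adjusted p = 0.0233 from limma). Mean ratios were above 0 in 17 of the 29 genes. Among the uncalled, they were −0.70 for Egln1, −0.57 for Pdk1 and 0.79 for P4ha2 (adjusted p-values of 0.0503, 0.0569 and 0.0708 from limma). Leaving out single days gave between 0 and 3 up-regulated genes in this list. The other 11 settings gave between 0 and 5 up-regulated and 0 and 3 down-regulated genes, with at least 1 down-regulated in 7 of them. The median log2 ratio was 0.17 with median scaling only and 0.15 with normalization within each operation.

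Among tip cell and Notch genes, 3 of 19 tested were up-regulated, where 9.19% of all genes were. Of these, Kcne3 was found on no array, and its call was lost with 50 added (0.25, adjusted p = 0.0760 from limma). Unc5b, a netrin receptor of tip cells, had a mean log2 ratio of 1.08 (adjusted p = 0.0172 from limma). Esm1, a tip cell marker that VEGF induces, had 1.38 (adjusted p = 0.0494 from limma) and was found on 5 TAB and 3 sham arrays. Its log2 ratio on day 7 was −0.16, and its mean was 0.63 with 50 added. The call of Esm1 was lost with median scaling alone (adjusted p = 0.0549 from limma), with normalization within each operation (0.0501) and without any day (0.0592 to 0.140). The Notch ligand Dll4 had −0.10 (adjusted p = 0.674 from limma). Without single days the list had between 0 and 1 called genes, and in 11 other settings between 1 and 3.

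Since the receptors are carried by endothelial cells, markers of these and other cells were set beside the members. Of 22 endothelial markers tested, 1 was up-regulated (Cd93, 0.61, adjusted p = 0.0409 from limma, lost whichever day was left out), where 9.19% of all genes were, with a median log2 ratio of 0.22. In 11 other settings between 0 and 5 endothelial markers were up-regulated. Pecam1 had 0.11 and Cdh5 0.34, with adjusted p-values of 0.747 and 0.135 from limma. The summed normalised intensity of the 22 endothelial markers was 22900 to 29700 in TAB and 20200 to 24400 in sham. Of the 5 lymphatic markers, Pdpn, which other stromal cells also carry, was up-regulated (1.76, adjusted p = 0.0179 from limma, lost without day 3, 5 or 7) and Prox1 down-regulated (−0.59, adjusted p = 0.0384 from limma, lost whichever day was left out), while Lyve1 (0.15), Mmrn1 (−0.07) and Reln (−0.46) had adjusted p-values of 0.775, 0.869 and 0.160 from limma. The median log2 ratio of the list was −0.07, and −0.23 to 0.17 without single days. Leaving out single days gave between 0 and 1 up-regulated and 0 down-regulated lymphatic markers, and 11 other settings gave 1 up-regulated each and 1 down-regulated in 9 of them.

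Beside the fall of Angpt1, the cells that can produce it were examined. The 11 pericyte and mural cell markers had mean ratios on both sides of 0, with 8 above it. Among them 5 were up-regulated, where 9.19% of all genes were, with Mcam (0.85, adjusted p = 0.0303 from limma), Cspg4 (0.65, adjusted p = 0.0349 from limma) and Des (0.50, adjusted p = 0.0446 from limma), and 1 of the 5, Anpep, was found on no array. Notch3, with 0.43 (adjusted p = 0.0447 from limma), was the fifth. Cspg4, Des and Notch3 lost the call whichever day was left out, and Cspg4 also with the mean of all its probes (adjusted p = 0.0593 from limma). The other 6 markers did not pass the test and had adjusted p-values between 0.122 and 0.786 from limma, with mean log2 ratios of 0.53 for Acta2, 0.25 for Ndufa4l2, 0.09 for Higd1b, −0.26 for Kcnj8, −0.59 for Rgs5 and −0.72 for Abcc9. The summed intensity of the list was 10100 to 11600 in TAB and 8470 to 9620 in sham. Between 47.4% and 62.2% of this sum came from Des, which cardiomyocytes also carry, and without Des the sums overlapped, at 4150 to 5060 in TAB and 4280 to 4560 in sham.

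Of 14 cardiomyocyte markers, 2 were down-regulated, Mb (−0.68, adjusted p = 0.0233 from limma) and Atp2a2 (−0.49, adjusted p = 0.0370 from limma, and 0.0659 to 0.111 without single days), where 7.87% of all genes were. The value of Mb depended on the probe, with −0.04 (adjusted p = 0.836 from limma) for its brightest probe and −0.36 (adjusted p = 0.0677 from limma) for the mean of its probes. Myl2 was at the ceiling of the scanner, with a raw intensity of at least 65000 on 4 TAB and 5 sham arrays, and the summed intensity without it was 242000 to 258000 in TAB and 254000 to 297000 in sham. By the same test, which called 9.19% of all genes higher, 7 of 10 fibroblast markers were up-regulated. Among these were Col3a1, Col1a2, Postn and Thy1 with mean log2 ratios of 3.68, 3.49, 3.37 and 1.77. Dcn (0.26), Tcf21 (0.24) and Dpt (0.13) did not pass it, with adjusted p-values of 0.119, 0.265 and 0.556 from limma. The summed intensity of the list was 31200 to 49800 in TAB and 21600 to 24800 in sham. Within this sum, the log2 intensity of Postn was 12.82 to 14.07 in TAB and 10.22 to 10.42 in sham. Against the same 9.19%, 11 of 13 macrophage and leukocyte markers were up-regulated (Cx3cr1, Cd68, Ccr2 and Aif1 with 2.21, 2.01, 1.96 and 1.64), with a summed intensity of 6000 to 14300 in TAB and 3650 to 4400 in sham. Such a sum weights bright probes most, and it is given for comparison between samples only. The part of these cell types in the ratio of Angpt1 was not tested. Leaving out single days gave between 0 and 2 up-regulated mural, 1 and 6 fibroblast and 0 and 11 leukocyte markers, and between 0 and 1 down-regulated cardiomyocyte markers. In 11 other settings these counts were 0 to 5, 5 to 8, 5 to 12 and 0 to 5. The median log2 ratio of the fibroblast list, 1.21, became 0.59 without probes that at least 1 array missed and 0.67 with 50 added. That of the leukocyte list, 1.26, became 1.28 and 0.97.

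**Figure D4:**
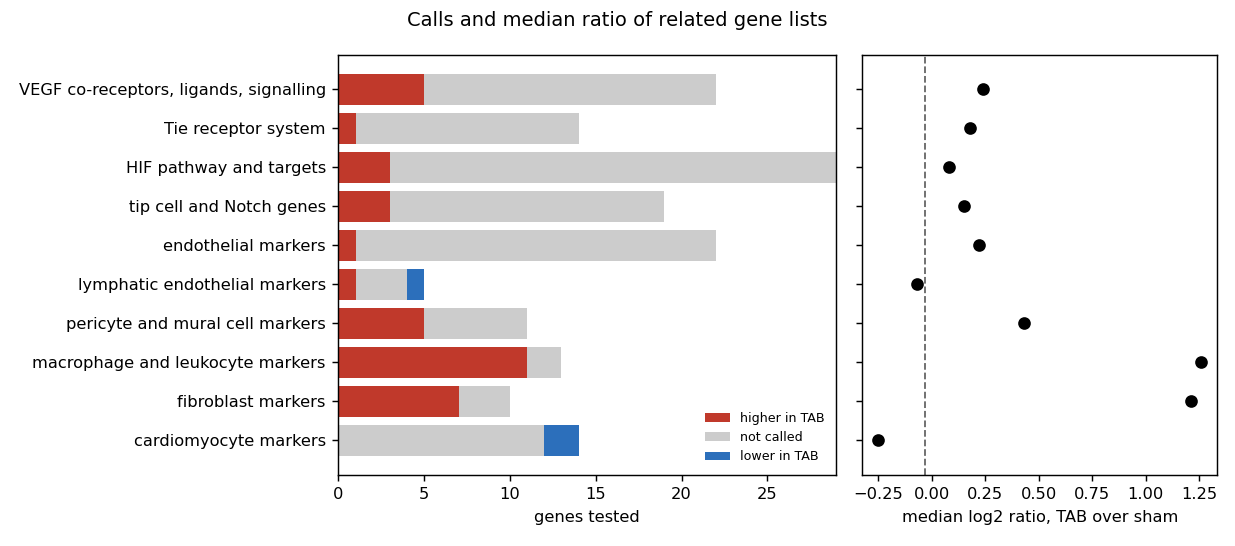
Number of tested genes of each list called higher, not called or called lower in TAB (left, x axis) and the median log2 ratio of TAB to sham of the list (right, x axis), with the median of all genes, −0.03, as a dashed line. The fibroblast and leukocyte lists stand at 1.21 and 1.26, whereas the endothelial list stands at 0.22 and the hypoxia list at 0.08.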

How the data were processed

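The 10 mRNA samples were Cy5-labelled and each put on a whole-genome mouse array (Phalanx OneArray). The authors deposited raw spot intensity after a background subtraction whose method is not given in the sources used here, without scaling between arrays. Per the file headers, a detection p-value and a flag come with each spot. The computation of the p-value and the meaning of the flag are not given in the sources used here, and neither decided a call.

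After scaling of all arrays to the same median, only the 19976 probes at or above 1 in all samples were kept. Quantile normalization used the median of each rank over all 10 samples and averaged ties, whereas the paper describes medians taken for each condition. The log2 of these normalized values was then taken, and a gene with several probes took the probe whose absolute log2 ratios had the largest sum, which concerned no member. Probes that lack a symbol, 3633 in all, were not used. Symbols are those of the array, and coordinates are from RefSeq on GRCm38.p6.

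The mean TAB effect, and how far it differed between early and late days, were tested across 16113 genes with limma 3.58.1 in R 4.3.3 (lmFit and eBayes), with day as a block. P-values were adjusted after Benjamini and Hochberg, with a threshold of 0.05. Pairing followed the day in the titles, on which the study's ratios also rest. Same-day samples deviated from the means of their groups with r, across genes, between −0.0165 and 0.113. Sources do not say how many mice a sample held, so that the p-values measure the spread between samples of different days. Member pairs were compared by an exact sign-flip test. Scripts were tested on simulated data and run in Python 3.11.15 with numpy 2.4.6, pandas 2.3.3 and matplotlib 3.10.9.

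The members, gene lists and comparisons were chosen with earlier results of these data known. From each list, up to 4 called genes with the largest absolute mean ratio were named, and for 4 members the 3 closest genes. Genes named beyond this rule (Nrp1, Nrp2, Cav1, Tie1, Ptprb, Angpt4, Dll4, Pecam1, Cdh5, Lyve1, Mmrn1, Reln, Notch3, Myl2 and the uncalled mural and fibroblast markers) were chosen for their role after their values were seen. Egln1, Pdk1 and P4ha2 were named for the size of their ratios. Alternatives covered normalization, an added 50, low-value filters, the probe of a gene, the block, the variance model, the threshold and each day left out.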

Additional observations from a re-analysis of the deposited data

How the results depend on the processing

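Angpt1 stayed lower in TAB under all 16 alternatives. Its call was lost with median scaling only (−0.57), with quantile normalization within each operation (−0.58), with probes below 1 set to 1 (−0.66) and without any day (−0.75 to −0.51), and was kept in 8 other settings, the fit without the replicate block among them (adjusted p = 0.0161 from limma). No other member passed the test in any setting. The sign of members near 0 turned: Vegfc had 0.06 with median scaling only and with normalization within each operation, 0.00 without probes that at least 1 array missed, and −0.19 to 0.10 without single days. Pgf had 0.05 in both of those normalizations and −0.14 to 0.15 without single days, and Vegfa −0.15 to 0.01 without single days. Kdr ranged from 0.03 to 0.33 without single days, Angpt2 from 0.16 to 0.40 and Tek from 0.00 to 0.13. Flt1 ranged from −0.22 to −0.02 and Flt4 from −0.24 to −0.06.

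The genes called higher and lower numbered 1481 and 1268 and became 2242 and 2227 with 50 added, 459 and 218 with probes below 1 set to 1, and 20 to 1482 and 1 to 1271 without single days. Those called lower numbered 1951 without the lowest tertile, 2032 without probes that an array missed, and 2064 with trend and robust on. The higher and lower genes numbered 29 and 1 without day 3, 86 and 12 without day 5, 20 and 2 without day 7, and 565 and 382 without day 14, with fewer samples in each fit. Without the replicate block, 1951 genes were higher and 1647 lower.

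For early against late days, 10 genes were called with 50 added, 7 without the lowest tertile, 18 without such missed probes, 5 without the replicate block and 34 with trend and robust on, none of them a member. Without single days, the difference ranged over −0.81 to 0.31 for Vegfc, −0.24 to 0.78 for Pgf, −0.16 to 0.20 for Flt4, −0.49 to 0.00 for Angpt1 and −0.34 to 0.02 for Tek. Over all 16 alternatives it ranged over −0.57 to −0.15 for Flt1, 0.16 to 0.64 for Angpt2, 0.05 to 0.62 for Kdr and 0.04 to 0.51 for Vegfa. Pgf minus Vegfa ranged from −0.12 to 0.26 without single days. Over all the alternatives tried for pairs, Flt1 minus Kdr ranged from −0.54 to −0.05 and Angpt2 minus Angpt1 from 0.72 to 1.05.

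By day, 839, 889, 912, 913 and 947 genes were called on days 3, 5, 7, 14 and 28, which became 420, 508, 437, 449 and 444 without the lowest tertile, 484, 544, 510, 526 and 530 without missed probes, and 3072, 3386, 2803, 2110 and 1802 with a fixed log2 ratio of 1. Among the members, Angpt1 was called on day 7 with 50 added and with the fixed ratio (1 member each). Low probe signal, 31 to 351 for Flt4, Angpt1, Angpt2, Pgf and Vegfc, limits these genes. The alternatives for list genes, list counts and summed intensities were chosen after seeing the data. The cause of these differences was not tested.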
